A study of Mus musculus with 22 samples.

Results

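The guanylate-binding proteins are large GTPases that cells make in response to interferons. Those followed here are Gbp2, Gbp2b, Gbp3 and Gbp7, 4 of the 8251 mouse genes measured, taken by gene symbol from the array's probe table. Each had exactly 1 probe set that carried its symbol alone, so no choice between probe sets was needed. One more probe set of the family carried 2 symbols, Gbp8 and Gbp4, and was therefore named for no gene.

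RNA was measured in mouse liver on 22 Affymetrix expression arrays. All mice lacked interferon-gamma (IFNg-/-), and those of 1 of the 2 genotypes also lacked SOCS1, the suppressor of cytokine signalling (SOCS1-/-IFNg-/-). Each genotype had 11 conditions with 1 array each: not injected, PBS (100 µl into the peritoneum) with the liver taken at 4 or 12 h, and recombinant interferon-gamma (4 µg in 100 µl, by the same route) with the liver taken at 0.5, 1, 2, 4, 12, 16, 24 or 48 h. By the genotype labels no mouse could make interferon-gamma, so the injected protein was its only intended source. The interferon-gamma protein in these animals was not measured here. The labels used here give no strain or age and leave unsaid whether a liver stands for 1 mouse or for pooled animals. Values are log2 expression summaries, so a difference of 1 is a 2-fold change.

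Interferon-gamma binds its receptor on the cell surface and activates JAK kinases, and the signal reaches promoters that hold gamma-activated sites (GAS elements). One early target is Irf1, whose protein binds interferon-stimulated response elements (ISREs), so a gene may also be switched on later by newly made IRF1. SOCS1 is itself induced by this pathway and blocks the JAK kinases. Guanylate-binding proteins gather on the vacuoles and membranes of intracellular parasites and bacteria, and they also take part in inflammasome activation. Gbp2 and Gbp2b (formerly called Gbp1) carry a CaaX motif at the end of the protein, where a lipid anchor is added. Gbp7 has been described as a member that helps bring NADPH oxidase subunits to phagosomes. All 4 genes lie next to each other on mouse chromosome 3, where RefSeq orders them as Gbp5, Gbp7, Gbp3, Gbp2b and Gbp2, followed by Kyat3.

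The promoters are shown because they are the regulatory sequence through which interferon signals reach these genes. RefSeq windows of 300 bases (assembly GRCm38.p6, 250 bases before to 50 after the start site, all on the + strand) were found for 4 of 4 members. An ISRE core and a GAS element were searched for on both strands. The core was taken as TTTC, any 2 bases, then TTTC, and the GAS element as TTCNNNGAA, which reads the same on both strands. Capitals mark the ISRE core. The windows are chr3:142620413-142620712 for Gbp2, chr3:142594597-142594896 for Gbp2b, chr3:142559794-142560093 for Gbp3 and chr3:142530086-142530385 for Gbp7.
Gbp2: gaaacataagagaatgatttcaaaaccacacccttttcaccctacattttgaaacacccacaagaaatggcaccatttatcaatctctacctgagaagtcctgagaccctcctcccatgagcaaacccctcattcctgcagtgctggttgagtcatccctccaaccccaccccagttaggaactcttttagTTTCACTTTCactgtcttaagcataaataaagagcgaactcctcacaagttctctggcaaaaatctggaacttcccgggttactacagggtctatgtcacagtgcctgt
Gbp2b: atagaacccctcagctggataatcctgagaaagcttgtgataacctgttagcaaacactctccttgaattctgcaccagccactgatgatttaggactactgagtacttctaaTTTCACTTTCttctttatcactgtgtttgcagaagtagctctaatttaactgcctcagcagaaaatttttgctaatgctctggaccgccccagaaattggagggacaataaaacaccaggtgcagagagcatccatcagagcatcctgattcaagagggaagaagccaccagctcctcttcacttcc
Gbp3: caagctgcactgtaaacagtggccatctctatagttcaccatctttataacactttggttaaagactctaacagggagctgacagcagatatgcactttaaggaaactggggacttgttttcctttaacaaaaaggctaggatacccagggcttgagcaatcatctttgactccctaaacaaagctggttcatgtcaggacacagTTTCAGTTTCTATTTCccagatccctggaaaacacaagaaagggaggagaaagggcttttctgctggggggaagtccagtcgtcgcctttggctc
Gbp7: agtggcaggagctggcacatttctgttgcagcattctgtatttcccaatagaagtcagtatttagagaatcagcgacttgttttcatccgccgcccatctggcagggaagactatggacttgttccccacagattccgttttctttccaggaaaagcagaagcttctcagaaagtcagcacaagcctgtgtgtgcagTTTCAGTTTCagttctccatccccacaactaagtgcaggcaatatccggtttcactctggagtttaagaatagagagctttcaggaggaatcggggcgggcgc

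Each of the 4 promoters held the ISRE core, against 1079 of 27025 genes with a window in the table (3.99%) and 1131 of 32851 windows (3.44%). In Gbp2 the match TTTCACTTTC lay at -59 to -50, counted in bases from the start site. Gbp2b held the same 10 letters farther away, at -137 to -128. Gbp7 held TTTCAGTTTC at -53 to -44. Gbp3 held 2 overlapping matches, TTTCAGTTTC at -45 to -36 and TTTCTATTTC at -39 to -30. Gbp2b, the member whose core lay farthest from the start, was also the member with the smallest response described below; the relation between position and response was not tested. Gbp3 has a second window in the table, for a start site farther downstream (chr3:142560106-142560405), which held neither motif.

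The GAS element was found in 1 of the 4 members. The Gbp7 window held it at 2 positions, TTCCAGGAA at -106 to -98 and TTCTCAGAA at -87 to -79. Of all genes with a window, 9.55% held this motif. The absence of a match says only that these letters are not in the window. Among the immunity-related GTPases, another family of interferon-inducible GTPases, 6 of 7 genes with a window held the ISRE core and 5 of 7 held GAS. A match is a description of the sequence, and binding was not measured here.

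**Figure D1:**
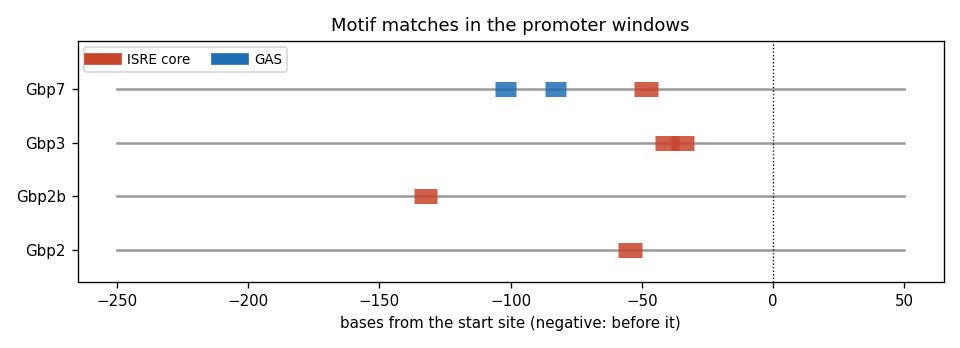
Positions of the motif matches in the 300-base promoter window of each guanylate-binding protein gene, as distance from the start site in bases on the horizontal axis and 1 line per gene. The ISRE core begins at -59 in Gbp2, -53 in Gbp7 and -45 in Gbp3 but at -137 in Gbp2b, and GAS matches appear in the Gbp7 window.

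The deleted genes were read first, and they check the labels only in part. Socs1 ranged from 6.68 to 9.21 in IFNg-/- livers, highest at 2 h, and from 6.57 to 7.02 in SOCS1-/-IFNg-/- livers. At 1 and 2 h it was 7.37 and 9.21 in IFNg-/- against 6.77 and 6.74, but at 24 h it was 6.70 against 7.02. Ifng, deleted in both genotypes and so unable to tell them apart, lay between 2.18 and 2.61 on all 22 arrays. The hepatocyte marker Alb was at 13.1 to 13.4 on every array. The mean of the 8 measured T and NK cell markers was 4.35 to 4.56 on the 22 arrays, that of 4 B cell markers 6.11 to 6.33, that of 6 endothelial markers 5.24 to 5.46 and that of 5 stellate cell markers 5.56 to 5.89. The Actb signal at the 3′ end exceeded that at the 5′ end by 0.33 to 1.56, a measure of RNA length, with the lowest value in the SOCS1-/-IFNg-/- liver 4 h after interferon. For Gapdh the same difference was 0.37 to 1.16 (median 0.52), highest in the SOCS1-/-IFNg-/- liver 12 h after interferon, where that of Actb was 1.13. Both of these livers enter the genotype difference at 4 to 16 h described below, and the part of RNA length in it was not tested. In whole liver, fewer cells of a type and less RNA per cell cannot be told apart.

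Gbp2 had the widest range of the 4. In IFNg-/- livers its level was 4.27 without injection, 4.53 at 4 h and 6.44 at 12 h after PBS, then 4.68, 6.25, 9.73, 7.89, 8.96, 8.08, 5.44 and 4.57 at 0.5, 1, 2, 4, 12, 16, 24 and 48 h after interferon. In SOCS1-/-IFNg-/- livers the same conditions gave 4.66, 4.27 and 7.60, then 5.17, 6.22, 9.36, 11.34, 10.94, 10.73, 7.64 and 4.54. The IFNg-/- time course was highest at 2 h, lower at 4 h and higher again at 12 h, whereas the SOCS1-/-IFNg-/- course was highest at 4 h and stayed above 10 through 16 h. Relative to the mean of the same genotype's uninjected and PBS 4 h livers, the highest point was 5.33 higher in IFNg-/- (40.3-fold) and 6.87 higher in SOCS1-/-IFNg-/- (117-fold). At 24 h, 19.5% of that log2 rise was left in IFNg-/- and 46.1% in SOCS1-/-IFNg-/-. At 48 h both genotypes were within the range of their controls.

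Gbp3 had a narrower range than Gbp2. In IFNg-/- livers its level was 5.33 without injection, 5.76 and 6.56 at 4 and 12 h after PBS, then 5.71, 6.39, 8.06, 7.24, 8.13, 7.29, 6.04 and 5.46 at the 8 times after interferon. In SOCS1-/-IFNg-/- livers it was 5.91, 5.67 and 7.07, then 5.84, 6.82, 8.09, 9.92, 9.37, 9.05, 6.91 and 5.67. The highest point stood 2.59 above baseline at 12 h in IFNg-/- (6.01-fold) and 4.13 above it at 4 h in SOCS1-/-IFNg-/- (17.5-fold). In both genotypes the livers at 2, 4, 12 and 16 h were above all 3 controls of their own genotype.

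Gbp7 was the only one of the 4 genes above all 3 controls of its genotype at 1 h. In IFNg-/- livers its level was 6.28 without injection, 6.43 and 7.24 after PBS, then 6.62, 8.25, 9.84, 8.27, 8.18, 7.24, 6.52 and 6.28. In SOCS1-/-IFNg-/- livers it was 6.46, 6.51 and 7.72, then 6.82, 8.44, 9.63, 10.62, 9.62, 8.03, 6.47 and 6.45. It was above all 3 controls of its genotype at 1, 2, 4, 12 and 16 h in both genotypes. In IFNg-/- at 16 h, though, it and PBS 12 h both round to 7.24. Gbp2 and Gbp3 at 1 h were below the PBS 12 h value. Above the uninjected and PBS 4 h mean, Gbp7 at 1 h had risen by 1.89 in IFNg-/- and 1.96 in SOCS1-/-IFNg-/-. Gbp2 had risen by 1.85 and 1.76, and Gbp3 by 0.84 and 1.03. The highest point of Gbp7 was at 2 h in IFNg-/- (3.48 above baseline, 11.1-fold) and at 4 h in SOCS1-/-IFNg-/- (4.13 above baseline, 17.6-fold). By 24 h, 4.61% of the log2 rise was left in IFNg-/- and none in SOCS1-/-IFNg-/-, where the value was -0.26%.

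Gbp2b varied least. Its level in IFNg-/- livers was 3.94 without injection, 4.08 and 4.42 after PBS, then 4.13, 4.24, 4.27, 4.52, 4.96, 4.41, 4.57 and 4.37. In SOCS1-/-IFNg-/- livers it was 4.19, 4.23 and 5.44, then 4.46, 4.11, 4.38, 4.29, 5.30, 5.18, 4.64 and 4.49. The SOCS1-/-IFNg-/- liver 12 h after PBS was the highest of all 22 arrays, and no interferon time of that genotype was above its controls. In IFNg-/- the livers at 4, 12 and 24 h were above all 3 controls of that genotype. The mean over the 22 arrays, 4.48, was at the 19.6th percentile of all genes, so its signal was low. Among the interferon times its largest rise above baseline was at 12 h in both genotypes, 0.95 in IFNg-/- and 1.09 in SOCS1-/-IFNg-/-.

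**Figure D2:**
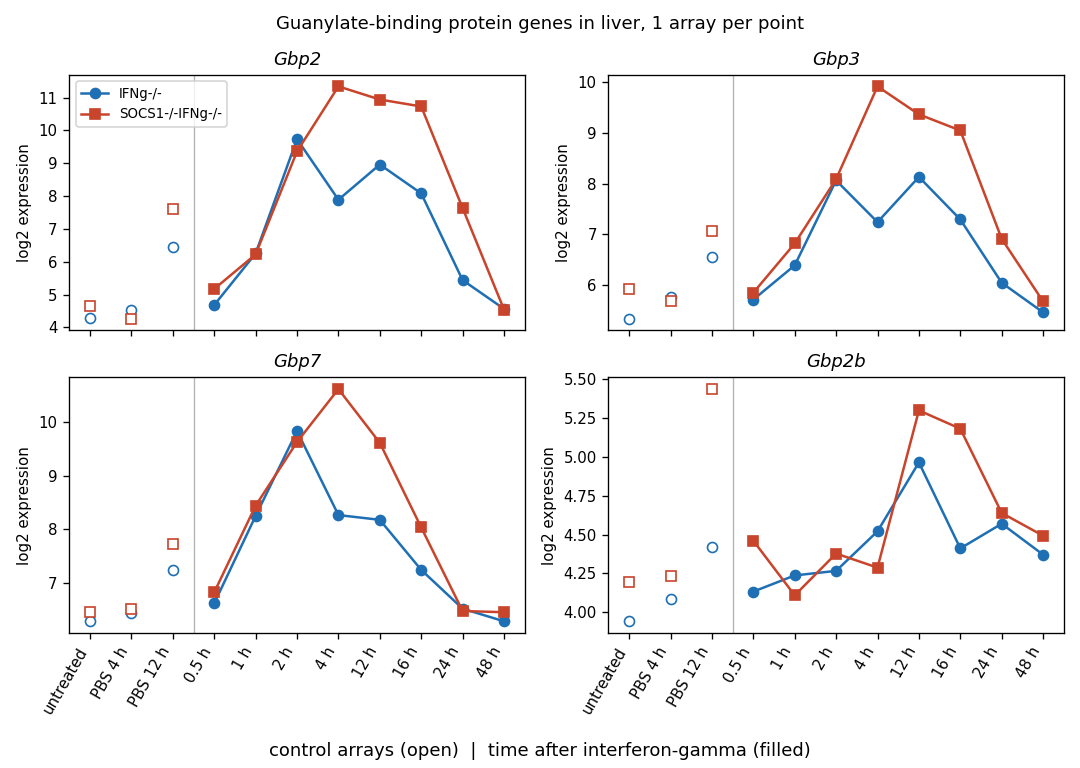
Log2 level of each guanylate-binding protein gene in every one of the 22 arrays, with 1 panel per gene, conditions in order along the horizontal axis (not to a time scale) and 1 line per genotype. Gbp2, Gbp3 and Gbp7 have a higher SOCS1-/-IFNg-/- line from 4 to 16 h, and the PBS 12 h points lie above the other controls in all 4 panels.

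With both genotypes averaged, the conditions fell into an order for each gene, and most neighbours in it were closer than the standard error of their difference. For Gbp2 the top conditions were 12 h (9.95), then 4, 2 and 16 h (9.61, 9.55 and 9.40). A gap of 2.39, which is 3.13 standard errors, separated these from PBS 12 h (7.02), 24 h (6.54) and 1 h (6.24). A further gap of 1.31 (1.72 standard errors) separated those from 0.5 h, 48 h, uninjected and PBS 4 h, which lay between 4.40 and 4.93. Gbp3 had the same 4 times on top, between 8.08 and 8.75, and a gap of 1.26 (2.58 standard errors) to PBS 12 h at 6.81. Gbp7 had a different order, with 2 h first (9.73), followed by 4, 12, 1 and 16 h (9.44, 8.90, 8.35 and 7.64). For Gbp2b, 12 h (5.13), PBS 12 h (4.93) and 16 h (4.80) were on top, and each gap between neighbours was below 1 standard error.

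The response to interferon was tested at each time as the mean of both genotypes minus the mean of the 6 control arrays. The fit was limma's on all 8251 genes, with p-values adjusted by Benjamini-Hochberg over all of them. With 1 array per genotype and condition, the 2 genotypes stood in for replicates. The fit takes out a steady genotype difference, so a p-value here is measured against how that difference varied between conditions. This spread holds changes in the effect of SOCS1 loss, variation between livers and technical variation, which cannot be told apart. Gbp2, Gbp3 and Gbp7 rose, and Gbp2b did not pass the threshold of 0.05 at any time.

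At 2 h, 3 of the 4 members rose, where 1.66% of all genes were called. Gbp2 was 4.25 ± 0.62 (SE) above controls (limma adjusted p = 0.00172), Gbp7 2.96 ± 0.36 (adjusted p = 0.000364) and Gbp3 2.03 ± 0.40 (adjusted p = 0.0165). The Gbp3 call at 2 h was lost without the uninjected pair (adjusted p = 0.075) and with a trended, robust variance prior (adjusted p = 0.081). At 4 h the same 3 members rose, where 5.03% of all genes were called: Gbp2 by 4.32 (adjusted p = 0.000994), Gbp7 by 2.67 (adjusted p = 0.000626) and Gbp3 by 2.53 (adjusted p = 0.00188). The median over the 4 members was 2.49 at 2 h and 2.60 at 4 h, against -0.02 and -0.03 over all genes.

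At 12 h these 3 members were again called, where 1.42% of genes were: Gbp2 was 4.66 higher (adjusted p = 0.00106), Gbp3 2.70 (adjusted p = 0.00218) and Gbp7 2.12 (adjusted p = 0.00638). Gbp2b was 0.75 ± 0.18 higher at 12 h, which missed the threshold (adjusted p = 0.0543). It passed when the PBS 12 h pair was left out, at 1.02 (adjusted p = 0.00198), and also when the 4 h (0.0277) or the 16 h pair (0.0356) was dropped and after renewed quantile normalization (0.0416). At 16 h, Gbp2 (4.11, adjusted p = 0.0049) and Gbp3 (2.12, adjusted p = 0.0278) were called, where 0.448% of genes were, and Gbp7 was 0.86 higher (adjusted p = 0.525). The 16 h calls depended on the setting. With the trended, robust prior Gbp2 had an adjusted p of 0.0504 and Gbp3 one of 0.142, and Gbp3 also lost its call without the uninjected pair (0.186) or the PBS 4 h pair (0.0712).

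None of the 4 members was called at the remaining times. At 0.5 h their differences lay between -0.37 and -0.05, and all 4 turned positive, between 0.11 and 0.49, without the PBS 12 h pair. At this time limma called 0 of 8251 genes (0%), with 478 genes under an unadjusted p of 0.05. Array weights gave 1 call at that time and the trended, robust prior 0. At 1 h, where 0.158% of genes were called, Gbp7 was 1.57 ± 0.36 above controls (limma adjusted p = 0.167) and Gbp2 0.94 (0.999). Gbp7 at 1 h passed without the 4 h pair (adjusted p = 0.0022), the pair with the largest genotype difference. It also passed with array weights (0.00546), which called 43 of 8251 genes at 1 h, against 13 without weights. At 24 h, where 0.17% of genes were called, Gbp2 was 1.24 higher (adjusted p = 0.541). Leaving out 1 condition moved Gbp2 between 0.50 and 1.80 at 1 h and between 0.80 and 2.10 at 24 h, with the highest value without PBS 12 h each time. At 48 h, where 0.0121% were called, the members lay between -0.74 and 0.05, and Gbp2 turned from -0.74 to 0.12 without the PBS 12 h pair.

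**Figure D3:**
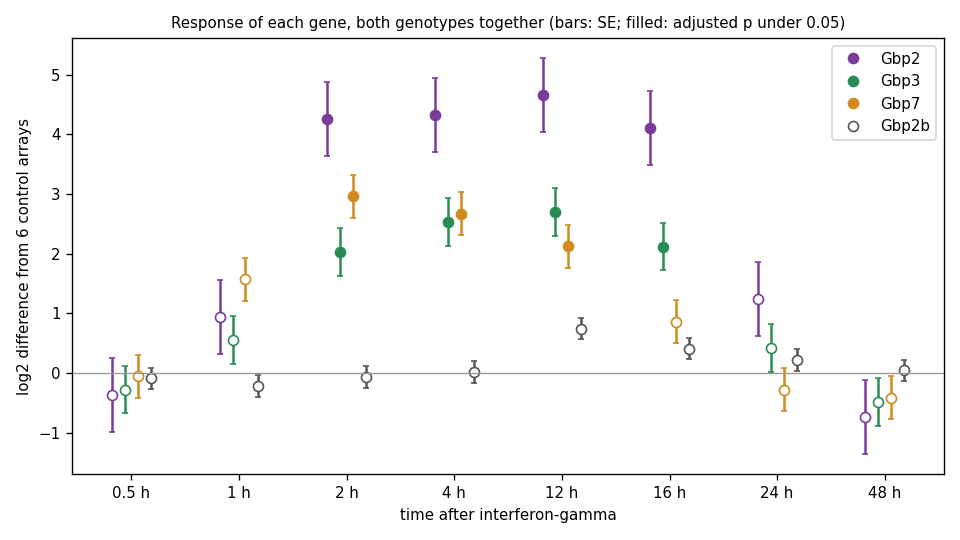
Response of each guanylate-binding protein gene at each time after interferon, as the log2 difference of both genotypes from the 6 control arrays, with bars of 1 standard error. Gbp2 stays above 4 from 2 to 16 h, Gbp7 is at 2.96 at 2 h and 0.86 at 16 h, and Gbp2b stays below 1 throughout.

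Other genes of the pathway were counted in the same fit. Of 9 immunity-related GTPases listed, 5 were measured, and 3, 5, 5 and 5 of them rose at 1, 2, 4 and 12 h, with 0 called at 0.5, 16, 24 and 48 h. At 4 h, Ifi47 was 3.69 ± 0.27 above controls, Igtp 3.14 ± 0.35, Irgm1 2.38 ± 0.33 and Irgm2 2.28 ± 0.17. Of 13 measured genes of receptor signalling, 1, 4 and 6 rose at 1, 2 and 4 h, and 0 were called at the other times. Irf1 stood 2.89, 3.43 ± 0.42, 2.17 and 0.63 above controls at 1, 2, 4 and 12 h. Of 4 measured enzymes of CaaX lipidation, which add the lipid anchor, 0 were called in any comparison. Of 6 measured inflammasome and phagocyte genes, Il1b rose at 1 h (1.21 ± 0.14, limma adjusted p = 0.00207) and Casp4, a sensor caspase for bacterial lipopolysaccharide, rose at 4 h (0.79 ± 0.15, adjusted p = 0.0073). None of 7 further guanylate-binding proteins listed was measured by a probe set with 1 symbol.

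The livers taken 12 h after PBS were not at the level of the other controls. For 4 of 4 members, both PBS 12 h arrays were above the 4 uninjected and PBS 4 h arrays, which held for 6.48% of all genes. Gbp2 was 2.03 above its baseline in IFNg-/- and 3.13 above it in SOCS1-/-IFNg-/-. The difference tested over both genotypes was 2.58 ± 0.66 for Gbp2 (limma adjusted p = 0.302), 1.15 ± 0.42 for Gbp3 (0.605), 1.06 ± 0.38 for Gbp7 (0.578) and 0.82 ± 0.19 for Gbp2b (0.193). No member was called there, and 0.0606% of all genes were. The mean of the 6 measured Kupffer cell and macrophage markers was 6.54 to 6.66 on the PBS 12 h arrays and 6.55 to 6.76 on the other controls, and that of the 7 neutrophil markers was 4.82 to 4.95 against 4.87 to 5.001, so neither list was higher there.

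These 2 arrays lower every response given against all 6 controls. Without the PBS 12 h pair, Gbp2 was 5.11, 5.18, 5.52 and 4.97 above controls at 2, 4, 12 and 16 h. Set against PBS of the same time, the 4 h livers were 5.21 ± 0.76 higher for Gbp2 (limma adjusted p = 0.00287), 2.97 ± 0.44 for Gbp7 (0.00315) and 2.86 ± 0.49 for Gbp3 (0.00868), where 1.36% of genes were called. Gbp2b was 0.25 ± 0.22 higher (0.779). Both interferon arrays were above both PBS 4 h arrays for 4 of 4 members and for 12.2% of all genes. The Gbp3 value had an adjusted p of 0.0507 with the trended, robust prior.

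At 12 h the comparison with time-matched PBS gave smaller differences. Gbp2 was 2.93 ± 0.76 higher than PBS 12 h (limma adjusted p = 0.252), Gbp3 1.94 ± 0.49 (0.252), Gbp7 1.42 ± 0.44 (0.392) and Gbp2b 0.20 ± 0.22 (0.95). None was called, where 0.109% of genes were. Both interferon arrays were above both PBS arrays for Gbp2, Gbp3 and Gbp7, and for 19.2% of all genes. Without the 4 h pair, whose genotype difference widens the spread, Gbp3 (adjusted p = 0.0141) and Gbp7 (0.0354) were called in this comparison. Gbp3 was also called with array weights (0.0301), which called 19 of 8251 genes here, against 9 without weights.

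Later and earlier times were then compared for each member. The mean of 12 and 16 h minus the mean of 1 and 2 h was 1.78 ± 0.54 for Gbp2 (limma adjusted p = 0.0753), 1.12 ± 0.35 for Gbp3 (0.0811), 0.72 ± 0.16 for Gbp2b (0.0178) and -0.77 ± 0.31 for Gbp7 (0.192). Only Gbp2b of the 4 was called, where 4.51% of all genes were, and its call was lost without the 1 h (0.0877), 2 h (0.0693) or 12 h pair (0.201). The early times have no PBS livers, so hours since injection and interferon cannot be told apart in this contrast. After PBS alone, the 12 h livers were above the other controls by 2.58 for Gbp2, 1.15 for Gbp3, 0.82 for Gbp2b and 1.06 for Gbp7. Gbp2b at 12 h after interferon was 0.20 above PBS 12 h. Gbp2 and Gbp3 were called without the 4 h pair (0.0252 and 0.0103). They were also called with array weights (0.0237 and 0.0145), which called 635 of 8251 genes here, against 372 without weights. When the 2 h pair was dropped Gbp2 and Gbp3 were called too, at 3.44 (0.0174) and 1.86 (0.0474). Dropping the 1 h pair instead left 0.13 for Gbp2 and 0.38 for Gbp3, the lowest of these fits, and neither was called. Gbp7 was called, as lower at 12 and 16 h, without the 4 h pair (0.027). Among the immunity-related GTPases, 4 of 5 were lower at 12 and 16 h, among them Irgm1 at -1.24 (adjusted p = 0.0215), and Irf1 differed by -2.66 ± 0.36 (adjusted p = 0.000669).

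The same contrast was read within each array. The rise of Gbp2 above its baseline exceeded that of Gbp7 by -0.20 to 1.85 on the 4 arrays of 1 and 2 h and by 2.74 to 4.71 on the 4 arrays of 12 and 16 h. Gbp3 minus Gbp7 was -1.05 to -0.85 at the early times and 0.45 to 1.71 at the later ones. On the PBS 12 h arrays, without interferon, Gbp2 minus Gbp7 was 1.15 in IFNg-/- and 1.89 in SOCS1-/-IFNg-/-. Gbp3 minus Gbp7 was 0.13 and 0.04 there, also above its values at 1 and 2 h. No PBS livers were taken at 1 or 2 h, so hours since injection and interferon cannot be told apart here. For both pairs of genes, the interferon arrays of 12 and 16 h were all above those of 1 and 2 h. This held for 36 of 8250 genes set against Gbp7 in this way (0.436%). Isg15, Gm9706 and Psmb9, whose profiles were the most like those of Gbp2 and Gbp3, were among them. That likeness was read on the same arrays, so their presence adds no separate evidence. Gbp7 itself stood 1.89 above baseline at 1 h in IFNg-/- and 3.13 at 12 h in SOCS1-/-IFNg-/-, so a gene without change could not be counted. Gbp2 minus Gbp3 was 0.73 to 2.81 and 1.93 to 3.004, and these overlapped. These ratios are a description, with no test, and show unequal change without showing which gene changed.

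**Figure D4:**
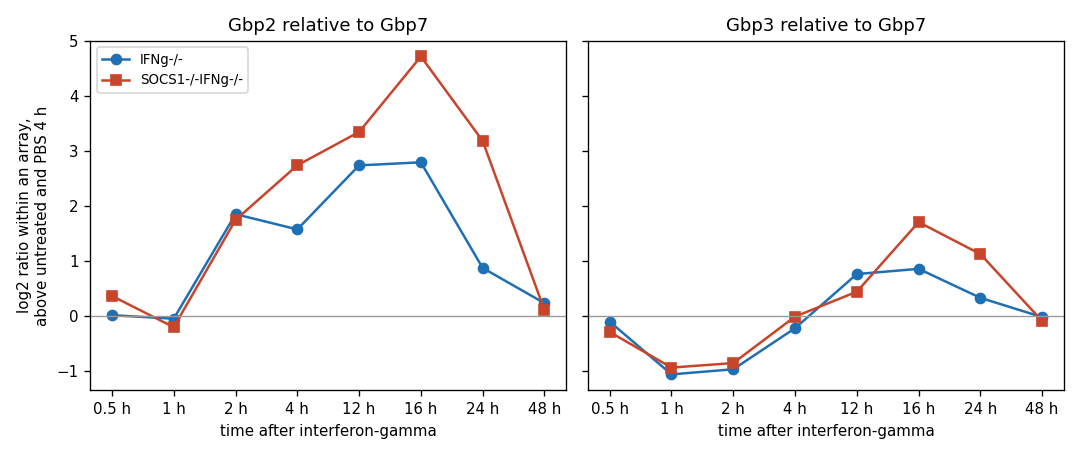
Log2 rise of Gbp2 minus that of Gbp7, and of Gbp3 minus that of Gbp7, within each interferon array, by time and genotype. Each rise is taken from the same genotype's uninjected and PBS 4 h mean, and the control arrays are not drawn. Gbp2 minus Gbp7 is 2.74 to 4.71 on the arrays of 12 and 16 h, above all 4 arrays of 1 and 2 h.

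Loss of SOCS1 was compared within each condition, as the SOCS1-/-IFNg-/- array minus the IFNg-/- array. At 2 h the genotypes were close, at -0.38 for Gbp2, 0.03 for Gbp3, -0.20 for Gbp7 and 0.11 for Gbp2b. At 4, 12 and 16 h Gbp2 was 3.45, 1.98 and 2.65 higher without SOCS1 (10.9-, 3.94- and 6.26-fold), Gbp3 2.68, 1.24 and 1.76 higher, and Gbp7 2.35, 1.44 and 0.79 higher. Gbp2b differed by -0.23, 0.34 and 0.77. From 2 to 4 h the genotypes moved apart: Gbp2 went down by 1.85 in IFNg-/- and up by 1.98 in SOCS1-/-IFNg-/-, Gbp3 down by 0.82 and up by 1.83, and Gbp7 down by 1.57 and up by 0.99. These single-array steps have no replicate.

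At 24 h the members separated. Gbp2 was still 2.20 higher without SOCS1 (4.58-fold), the highest of all 8251 genes in that direction at that time, and Gbp3 was 0.87 higher. Gbp7 differed by -0.04 and Gbp2b by 0.07. At 48 h the differences of the 4 members lay between -0.02 and 0.22. Counted from the highest among all genes, the Gbp2 difference had ranks 12, 4 and 3 at 4, 12 and 16 h.

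The test of these differences used the 11 within-condition values grouped as controls, rise (0.5, 1 and 2 h), sustained (4, 12 and 16 h) and decline (24 and 48 h), with limma over all genes. The sustained difference exceeded that in controls by 2.26 ± 0.52 for Gbp2 (adjusted p = 0.26), 1.56 ± 0.31 for Gbp3 (0.176) and 1.28 ± 0.29 for Gbp7 (0.258), and was -0.18 ± 0.25 for Gbp2b (0.98). None passed, and limma called 0 of 8251 genes (0%), with 658 at an unadjusted p under 0.05. Array weights gave 37 calls over all genes, none of them a member, and the trended, robust prior 0. Gbp7 passed without the 16 h pair (1.65, adjusted p = 0.0468). Set against all 8 other pairs, an alternative chosen after seeing the data, Gbp3 (1.56, adjusted p = 0.0155) and Gbp7 (1.40, 0.0171) were called and Gbp2 was not (2.25, 0.0612). That alternative called 22 of 8251 genes.

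In controls the genotypes differed by 0.43 ± 0.37 for Gbp2, 0.47 ± 0.18 for Gbp2b, 0.34 ± 0.22 for Gbp3 and 0.25 ± 0.21 for Gbp7 (limma adjusted p = 1.00 each), where 0.0242% of genes were called. In the order uninjected, PBS 4 h and PBS 12 h, Gbp2 differed by 0.39, -0.26 and 1.16 and Gbp2b by 0.25, 0.15 and 1.02. The PBS 12 h values had ranks 14 and 17 from the highest among all genes. Gbp3 differed by 0.58, -0.09 and 0.52 and Gbp7 by 0.18, 0.08 and 0.48. The rise times differed from controls by -0.40 to -0.14 and the decline times by -0.38 to 0.66. No gene was called in either comparison (0%), with 213 and 586 genes at an unadjusted p under 0.05, and array weights and the trended, robust prior also called 0 in both.

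Without a test, the 3 SOCS1-/-IFNg-/- arrays of 4, 12 and 16 h were all above the 3 IFNg-/- arrays for Gbp2 and Gbp3, which held for 4.5% of all genes. For Gbp7 and Gbp2b the genotypes overlapped. SOCS1-/-IFNg-/- exceeded IFNg-/- by more than 1 in all 3 of these pairs for 7 genes (0.0848%): Gbp2, Gbp3, Gm9706, Ifi47, Igtp, Isg15 and Samhd1. The mean of the 7 neutrophil markers was 5.10 to 5.30 on those SOCS1-/-IFNg-/- arrays and 4.79 to 5.02 on the IFNg-/- arrays, with S100a8 1.24 and S100a9 0.92 higher without SOCS1 and the other 5 between -0.10 and 0.07. The 6 hepatocyte markers averaged 11.58 to 11.75 and 11.73 to 11.87 on the same arrays, and the 6 Kupffer cell markers 6.32 to 6.74 and 6.49 to 6.68. The part of these markers in the genotype difference was not tested.

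**Figure D5:**
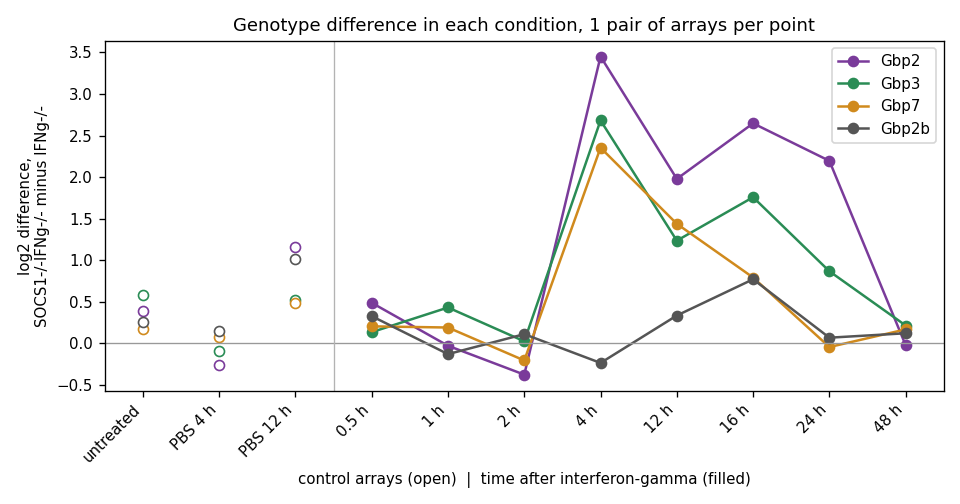
Genotype difference of each guanylate-binding protein gene in each of the 11 conditions, as the log2 level in SOCS1-/-IFNg-/- minus that in IFNg-/- liver, 1 pair of arrays per point. Gbp2, Gbp3 and Gbp7 are between 0.79 and 3.45 at 4, 12 and 16 h, and at 24 h Gbp2 is at 2.20 while Gbp7 is at -0.04.

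Over the 22 arrays, Gbp2 and Gbp3 had the most similar profiles among the members (Pearson r = 0.984). Gbp7 had an r of 0.854 with Gbp2 and 0.869 with Gbp3, and Gbp2b had 0.549 with Gbp2 and 0.237 with Gbp7. The arrays share livers, treatment and time, so these values are descriptions without a p. Whether probes for one member also bind transcripts of another, which are similar in sequence, was not tested. Of all other genes, the 5 most like the mean of the 4 members were Gm9706 (0.960), Isg15 (0.959), the ubiquitin-like interferon-induced protein, Psmb9 (0.950), an immunoproteasome subunit, Igtp (0.942) and Lgals3bp (0.929). Gm9706, Isg15 and Psmb9 were also the 3 most like Gbp2 and the 3 most like Gbp3. For Gbp7 the 3 were the immunity-related GTPases Igtp (0.978), Irgm1 (0.972) and Ifi47 (0.962). For Gbp2b they were H2-DMa (0.860) and H2-DMb1 (0.837), chains of the class II peptide loading factor, and Cd52 (0.856), a surface protein of leukocytes.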

How the data were processed

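Total RNA from each liver was cleaned and turned into biotin-labelled cRNA, per the labels' protocols. The deposited values are log2 expression summaries that the authors had made per probe set, already on a common scale (array medians 5.64 to 5.71); the submitters' processing notes name affy, for background correction, normalization and probe summary no method is named in the sources used here. The number of arrays limits the precision. Of 12488 probe sets, 66 controls were left out, 10833 had 1 symbol, 396 several and 1193 none; those with 1 symbol gave 8251 genes, each by the probe set with the highest mean. Symbols were checked against RefSeq (GRCm38.p6), and 0 were updated.

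Genes were tested with limma 3.58.1 in R 4.3.3 (lmFit, eBayes), Benjamini-Hochberg adjusted over 8251 genes, threshold 0.05: responses with condition and genotype as additive terms (10 residual degrees of freedom), genotype differences on 11 within-condition differences by phase (7 residual degrees of freedom). The fits were tested on simulated data. Alternatives were leaving out each condition, array weights, a trended robust prior, renewed quantile normalization, median centring, a filter (highest value at least 6), the mean over probe sets, and other phases; those with 24 h as sustained or against all 8 other pairs were chosen after seeing the data. The members, lists and phases were chosen with earlier results of these data known. Named were the members, Socs1 and Ifng, up to 4 genes per list by size at 4 h, and the genes most like the members by Pearson r (5 for the mean, 3 for each); Alb, S100a8, S100a9 and the 7 genes over 1 in all 3 sustained pairs were named after their values were seen.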

Additional observations from a re-analysis of the deposited data

How the results depend on the processing

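Of the counts of members called, 249 stayed within 1.5 times the reported count and 15 did not. Of the members' values, 988 kept direction and side of the threshold, 19 came to pass it, 10 no longer passed it and 23 changed sign. Leaving out 1 condition at a time gave 0 to 1 members called at 1 h (1 without 4 h), 1 to 2 at 16 h (1 without uninjected or PBS 4 h), 0 to 2 for 12 h against PBS 12 h (2 without 4 h), 0 to 4 for 12 and 16 h against 1 and 2 h (0 without 1 or 12 h, 2 without 2 h, 4 without 4 h), and 0 to 1 for the sustained genotype difference (1 without 16 h). Array weights gave 1, 1 and 3 (43, 19 and 635 over all genes) at 1 h, in 12 h against PBS 12 h and in 12 and 16 h against 1 and 2 h. The trended, robust prior gave 0 at 16 h, and the filter on low values, which drops Gbp2b, gave 0 in 12 and 16 h against 1 and 2 h. The sustained difference set against all 8 other pairs, added after seeing the data, gave 2 (22 over all genes), with Gbp2b turned to 0.051. None of the values that changed sign had passed the test. Leaving out 1 condition gave, at 0.5 h, Gbp2 -0.81 to 0.49, Gbp2b -0.25 to 0.18, Gbp3 -0.49 to 0.11 and Gbp7 -0.26 to 0.30, positive without PBS 12 h. Gbp2b ran from -0.37 to 0.059 at 1 h, -0.22 to 0.21 at 2 h, -0.14 to 0.29 at 4 h and -0.11 to 0.32 at 48 h. Gbp7 ran from -0.48 to 0.075 at 24 h and Gbp2 from -1.19 to 0.12 at 48 h. In the genotype differences, Gbp2b ran from -0.42 to 0.090 in sustained, Gbp2 from -0.45 to 1.77 and Gbp3 from -0.12 to 0.53 in decline. With early and late phases, the early differences were 0.46 for Gbp2, 0.48 for Gbp3 and 0.39 for Gbp7, since 4 h then counts as early. With 24 h counted as sustained, decline was -0.45 for Gbp2 and -0.12 for Gbp3. Where no cause is named, the cause was not tested. Renewed quantile normalization moved 1 call, Gbp2b at 12 h (limma adjusted p = 0.0416). With 1 array per genotype and condition, single-array differences carry no error.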
